A study of Mus musculus with 4 samples.

Results

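Toll-like receptors are membrane proteins with which macrophages sense microbial molecules, and several of them need small helper proteins to bind their ligand. The genes described here are 5 Toll-like receptor genes (Tlr1, Tlr2, Tlr4, Tlr6 and Tlr7), the lipopolysaccharide co-receptor gene Cd14, the receptor-bound partner genes Ly96 and Ly86, the receptor homologue gene Cd180 and the signalling adaptor gene Myd88. They were taken from a fixed list of 10 names, with every probe set that carries 1 of those symbols and no other. All 10 were on the array, with 13 probe sets among the 20380 that had 1 symbol, and all 10 genes and 13 probe sets passed the filter on dim signals, against 8156 of 12393 genes in the whole series.

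The cells were tumour-associated macrophages, isolated by flow cytometry from digested tumours of mice with GIST (gastrointestinal stromal tumour), which arises in the gut wall and usually depends on an activated Kit receptor kinase. The imatinib group had received imatinib, an inhibitor of Kit and related kinases, for 2 weeks (600 mg/L, drinking water), and the vehicle group was the control over the same time. Mouse strain, the allele behind the tumours, sex, age and sorting markers are not stated in the labels. Each group pooled the cells of 8 mice and gave 2 arrays, from 200 ng of RNA each, described as duplicates of a pool in the design text and as biological replicates in the titles, so the spread behind every p-value is that between 2 arrays and may be technical.

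Lipopolysaccharide, the outer-membrane lipid of Gram-negative bacteria, is picked up by CD14 and handed to the complex of TLR4 and MD-2, the product of Ly96. TLR2 pairs with TLR1 or TLR6 to sense bacterial lipopeptides, and TLR7 senses single-stranded RNA inside endosomes. CD180, bound to MD-1 (the product of Ly86), resembles the outer part of TLR4 but lacks the signalling domain; in mouse macrophages and dendritic cells it is known to dampen the TLR4 response, and in B cells to support activation. MYD88 carries the signal from nearly all Toll-like receptors towards NF-kappaB. Gut macrophages are known for a muted response to bacterial products.

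Both imatinib arrays lay above both vehicle arrays for 8 of the 10 members, where 26.1% of all tested genes did so. They lay below for 1 member, Cd180, where 30.1% of all tested genes did, and the groups overlapped for Tlr6. Cd14, Tlr7, Tlr4 and Tlr2 rose with imatinib, by 1.54-fold, 1.47-fold, 1.42-fold and 1.25-fold. When set against macrophage markers, Tlr7 (log2 difference 0.11) and Tlr4 (0.07) did not pass the test and Tlr2 turned negative (-0.12). Cd180 fell by 0.69 on the log2 scale, while its partner Ly86 did not pass the test. In limma at a Benjamini-Hochberg adjusted p below 0.05 over all 8156 genes, 4 of the 10 members were thus higher, where 6.74% of all tested genes were, and 1 was lower, where 8.85% of all tested genes were. Without imatinib replicate 1, 2 members were higher and 1 lower. The other 5 members, Tlr1, Tlr6, Ly96, Ly86 and Myd88, did not pass. The members' log2 differences, imatinib minus vehicle, ran from -0.69 to 0.62 with a median of 0.28, beside a median of -0.02 over all tested genes.

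Those values rest on the deposited scaling of the arrays, and transcripts of other groups moved on the same arrays. Folds and differences were computed on log2(signal + 32). Of 14 macrophage markers tested, 10 were higher and none lower (median log2 difference 0.38; 6 were higher without vehicle replicate 1 or without vehicle replicate 2), and their summed signal was 169618 to 177434 on the imatinib arrays and 143941 to 144268 on the vehicle arrays. All 13 epithelial markers were lower (median -2.18), with a summed signal of 6747 to 6748 with imatinib and 33546.3 to 33983.7 with vehicle, and 7 of 10 fibroblast markers were lower. Markers of the tumour cells and of interstitial cells of Cajal summed to 3399.9 to 3402 with imatinib and 7709 to 7893 with vehicle. That sum was mostly Gja1, with 2113 and 2059 on the imatinib arrays and 5736 and 6061 on the vehicle arrays. Of these 7 markers 4 were lower (median -0.63), and 2 without imatinib replicate 2, without vehicle replicate 1 or without vehicle replicate 2. The brightest markers of the labelled cell type, Csf1r, C1qb and C1qa, lay between 24531 and 31382 on all 4 arrays. A second scaling made the mean of the macrophage markers equal on all arrays. It lowers every log2 difference by 0.44, so that all differences below 0.44 turn negative. The markers themselves ran from -0.09 to 1.16 on the deposited scale, and 3 were higher and 4 lower on their own scale. That spread between the markers is not part of the p-values given against them. A further scaling set the array medians equal and raises every difference by 0.16. The part that cell composition played in the members' values was not tested, and fewer cells of a type and less RNA per cell cannot be told apart in such bulk samples. The Gapdh controls, whose 3'/5' ratio can reflect RNA integrity, gave ratios of 2.34 and 2.09 with imatinib and 2.91 and 2.76 with vehicle. The actin controls gave 3.06 and 2.71 with imatinib and 3.99 and 3.58 with vehicle. The part of RNA integrity was not tested either.

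Promoter sequence was at hand for 6 of the 10 members, from RefSeq windows of build GRCm38.p6. The sequences shown are those of the member that passed as lower, of its binding partner, and of the stretch of the Tlr2 promoter that held a motif. The first pair are the 250 bases before the annotated start of Cd180 (chr13:102693297-102693546, plus strand) and of Ly86 (chr13:37345095-37345344, plus strand), and the last is a stretch of 30 bases before the start of Tlr2 (chr3:83841761-83841790, minus strand), all written in the direction of transcription, with matches in capitals.
Cd180: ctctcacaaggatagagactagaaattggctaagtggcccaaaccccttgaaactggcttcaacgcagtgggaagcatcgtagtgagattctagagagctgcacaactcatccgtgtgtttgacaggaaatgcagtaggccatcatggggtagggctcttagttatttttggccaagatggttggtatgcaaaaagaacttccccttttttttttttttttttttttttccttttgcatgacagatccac
Ly86: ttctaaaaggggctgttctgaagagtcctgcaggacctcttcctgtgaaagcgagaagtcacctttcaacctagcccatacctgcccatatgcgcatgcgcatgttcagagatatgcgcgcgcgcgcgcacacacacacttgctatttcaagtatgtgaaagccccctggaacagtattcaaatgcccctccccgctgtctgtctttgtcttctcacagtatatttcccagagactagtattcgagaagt
Tlr2: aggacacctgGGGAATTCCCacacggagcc
The capitals mark overlapping matches to the NF-kappaB letters GGGNNTTCC on both strands, 172 to 163 bases before the start. Both strands of 9 member windows were searched for 4 motifs: those letters, held by 4.98% of all 32851 windows, the PU.1 core GAGGAA (23.3%), the C/EBP letters TTGCNNAA (9.56%) and the AP-1 letters TGANTCA (6.75%). Beside the Tlr2 match, 1 of the Tlr1 windows held a PU.1 core and 1 of the Tlr6 windows a C/EBP match. The Cd180, Ly86 and Myd88 windows held none of the 4, which says only that these letters are not in these windows.

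Among the genes for sensing lipopolysaccharide, Cd14 gave the clearest difference. Its signal was 15152.5 and 14464.1 on the imatinib arrays, against 9316 and 9878 on the vehicle arrays. Both imatinib arrays lay well above both vehicle arrays. The mean was 14808 ± 487 with imatinib and 9597 ± 398 with vehicle (SD, n = 2), a log2 difference of 0.62 ± 0.07 (SE; limma adjusted p = 0.00020). Cd14 was the only member that stayed higher against the macrophage markers, where its log2 difference was 0.18 (limma adjusted p = 0.029).

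Tlr4, which encodes the signalling receptor for lipopolysaccharide, had a signal of 946.4 and 867.1 with imatinib, against 660.1 and 594.8 with vehicle, on its brighter probe set 1418162_at. The groups did not overlap, and the log2 difference was 0.51 ± 0.11 (SE; limma adjusted p = 0.013). The dimmer Tlr4 probe set 1418163_at gave 676.8 and 691.4 with imatinib and 532.4 and 483.5 with vehicle. It moved the same way, by 1.33-fold, and just missed the threshold among all probe sets (limma adjusted p = 0.0505). The Tlr4 call was lost when imatinib replicate 1 (limma adjusted p = 0.085) or vehicle replicate 2 (limma adjusted p = 0.058) was left out, and the difference was 0.07 against the macrophage markers (limma adjusted p = 0.58).

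Ly96, whose product MD-2 forms the lipid-binding pocket beside TLR4, had a signal of 804.3 and 822.9 on the imatinib arrays, against 541.8 and 695.3 on the vehicle arrays. The groups did not overlap, but the vehicle arrays lay far apart. Its log2 difference of 0.39 (95% interval 0.09 to 0.68) did not pass (limma adjusted p = 0.077). It passed with equal array medians (0.55, limma adjusted p = 0.014) or without vehicle replicate 2 (0.56, limma adjusted p = 0.021). Without vehicle replicate 1 it was 0.22 (limma adjusted p = 0.39), and against the macrophage markers -0.05.

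Cd180 was the only member that passed as lower on the deposited scale. Its signal was 501.1 and 463.3 with imatinib, against 742.9 and 850.9 with vehicle. Both imatinib arrays lay below both vehicle arrays, with means of 482.2 ± 26.7 and 796.9 ± 76.4 (SD, n = 2). The log2 difference was -0.69 ± 0.12 (SE; limma adjusted p = 0.0034), and 7.22% of all tested genes had a more negative difference. It stayed lower with equal array medians (-0.53, limma adjusted p = 0.017). The difference was -1.13 against the macrophage markers (limma adjusted p = 8.1e-05). That scaling lowers every difference by 0.44, so it could not turn a negative one, and 60.5% of all tested genes were lower on it.

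Ly86, which encodes the CD180 partner MD-1, had a signal of 19933 and 18783.9 with imatinib, against 17615 and 18216 with vehicle. The imatinib arrays lay above by a small margin, and the log2 difference of 0.11 (95% interval -0.05 to 0.27) did not pass (limma adjusted p = 0.35). It was -0.01 under quantile normalization and -0.33 against the macrophage markers, where it passed as lower (limma adjusted p = 0.0017). On that scale 60.5% of all tested genes passed as lower, and their median was -0.46. The intervals of Cd180 (-0.96 to -0.41) and Ly86 did not overlap on the deposited scale, and the difference between these genes was not itself tested.

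B cells also carry CD180, so B cell markers are given beside it. Of 8 B cell markers tested, 2 were higher and 1 lower, with a median log2 difference of -0.02, and 1 was higher when any of the 4 arrays was left out. Against the macrophage markers their median was -0.46, with 1 higher and 4 lower, beside a median of -0.46 over all tested genes. Their summed signal over 9 genes was 9635 to 10485.5 with imatinib and 13040 to 13078 with vehicle. That sum was mostly the immunoglobulin heavy chain gene Ighm, which fell by 0.62 on the log2 scale; without it the sum was 3259 to 3467 with imatinib and 2658 to 2807 with vehicle. The B cell surface genes Cd22 (0.84) and Cd79b (0.38) rose on the deposited scale, Cd79b turning negative against the macrophage markers, while Ms4a1, which encodes CD20, had a difference of 0.04. The B cell factor gene Pax5 was below the signal filter, at 15.6 and 20.4 with imatinib and 87.4 and 71.5 with vehicle. The part of B cells in the Cd180 value was not tested.

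**Figure D1:**
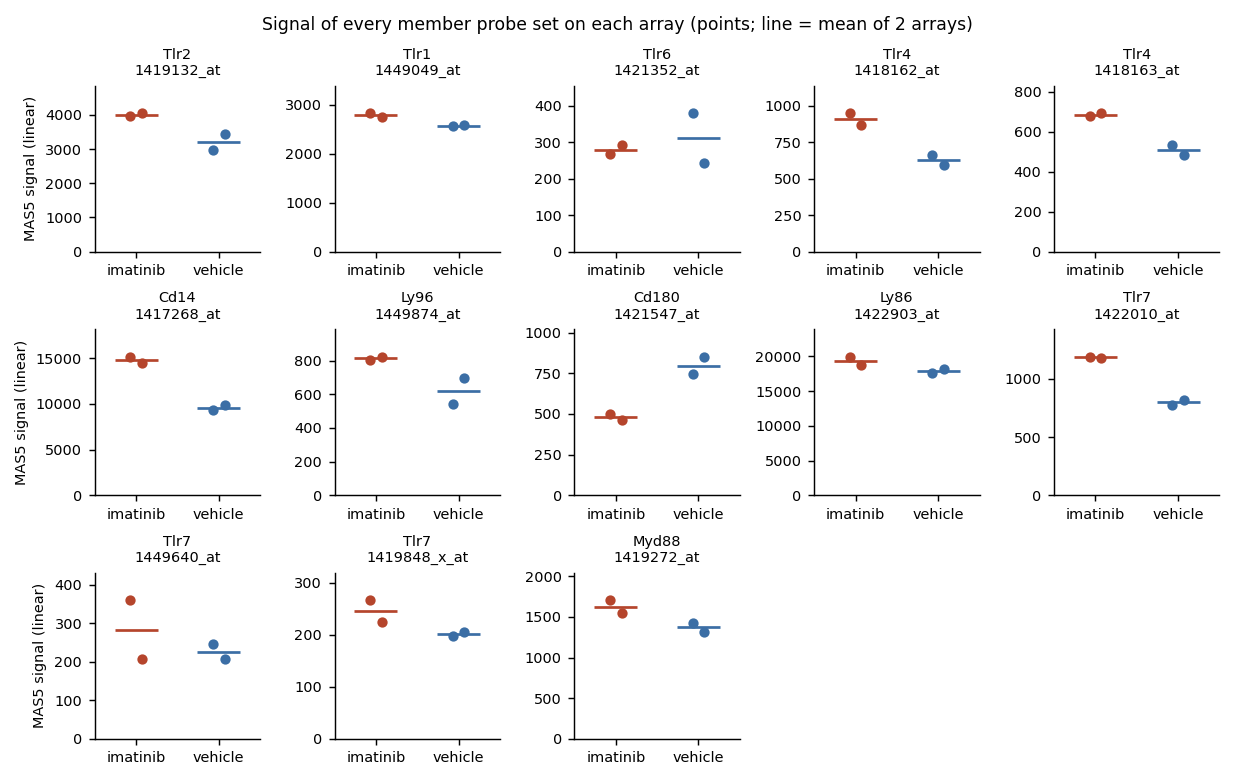
MAS5 signal (linear axis from 0) of each of the 13 member probe sets on the 2 imatinib arrays (red) and the 2 vehicle arrays (blue); points are arrays and lines are group means. The imatinib points lie above both vehicle points for Cd14 (14464.1 or more against 9878 or less) and below them for Cd180 (501.1 or less against 742.9 or more), and they overlap for Tlr6 and for the Tlr7 probe set 1449640_at.

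Of the lipopeptide receptors, Tlr2, the shared subunit, rose by a small amount. Its signal was 3976 and 4042 with imatinib, against 2980 and 3452 with vehicle. The groups did not overlap, and the vehicle arrays differed from each other almost as much as the nearer of them did from the imatinib arrays. The log2 difference was 0.32 ± 0.09 (SE; limma adjusted p = 0.037). The Tlr2 call depended on the arrays used, with a limma adjusted p = 0.079 without imatinib replicate 1, 0.10 without imatinib replicate 2 and 0.25 without vehicle replicate 1. It was also lost under quantile normalization (limma adjusted p = 0.055), without the filter on dim probe sets (limma adjusted p = 0.083), without the variance trend (limma adjusted p = 0.20) and with the replicate number as a block (limma adjusted p = 0.057). Against the macrophage markers the Tlr2 difference was -0.12.

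Tlr1, a partner subunit of TLR2, had a signal of 2821 and 2750 with imatinib, against 2559 and 2584 with vehicle. The arrays of each group lay close together and the groups did not overlap, yet the log2 difference was only 0.11 (95% interval -0.07 to 0.29; limma adjusted p = 0.41). Against the macrophage markers Tlr1 was lower, at -0.33 (limma adjusted p = 0.0055), where 60.5% of all tested genes were lower and their median was -0.46.

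Tlr6, the other partner subunit, had a signal of 267 and 293.2 with imatinib, against 379.5 and 244.3 with vehicle. It was the only member whose groups overlapped on the probe set that stands for the gene, and its wide interval (-0.55 to 0.33 around a log2 difference of -0.11; limma adjusted p = 0.77) allows a change in either direction. The sign turned to 0.17 without vehicle replicate 1 and to 0.05 with equal array medians. Tlr6 was lower against the macrophage markers (-0.55, limma adjusted p = 0.039), as were 60.5% of all tested genes. Both imatinib arrays lay above both vehicle arrays for 8 members and below for 1, where 26.1% and 30.1% of all tested genes did so.

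Tlr7, the endosomal receptor for single-stranded RNA, rose on its brightest probe set, 1422010_at. The signal there was 1189 and 1180.4 with imatinib, against 773.8 and 821.3 with vehicle. The imatinib arrays were almost equal and lay clear of the vehicle arrays, with a log2 difference of 0.55 ± 0.10 (SE; limma adjusted p = 0.0039). The other Tlr7 probe sets were dimmer and less clear. Probe set 1449640_at had 359.2 and 208 with imatinib and 245.6 and 206.1 with vehicle, which overlap, and probe set 1419848_x_at had 266 and 223.7 with imatinib and 197.6 and 205.4 with vehicle, which do not. Their log2 differences were 0.25 and 0.24 (limma adjusted p = 0.54 and 0.44 over all probe sets). With the mean of the probe sets standing for the gene the Tlr7 difference was 0.35 and did not pass (limma adjusted p = 0.15), and against the macrophage markers it was 0.11 (limma adjusted p = 0.32).

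Myd88, the adaptor below these receptors, had a signal of 1702 and 1551 with imatinib, against 1419.9 and 1319.5 with vehicle. The groups did not overlap, and the log2 difference of 0.24 (95% interval 0.03 to 0.46) did not pass (limma adjusted p = 0.13). It passed with equal array medians (0.40, limma adjusted p = 0.045) and was -0.20 against the macrophage markers.

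At the level of probe sets, 5 of the 13 were called, 4 higher and 1 lower (3 in all without imatinib replicate 1), where 6.05% of all 12488 probe sets tested were higher and 7.48% lower. Under equal array medians 6 member genes were higher and 1 lower, where 12.8% and 6.2% of all tested genes were. Against the macrophage markers 1 was higher (Cd14) and 4 were lower (Cd180, Ly86, Tlr1 and Tlr6), where 1.41% and 60.5% of all tested genes were. Cd14 and Cd180 thus kept their direction and their call under these 3 scalings. Equal array medians raise every difference and the macrophage marker scaling lowers every difference. Only the macrophage marker scaling could have turned the sign of Cd14, and only equal array medians that of Cd180. An exact permutation test of 1 gene over 2 against 2 arrays cannot give a two-sided p below 0.33, so the calls rest on the variance that limma shares between genes.

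**Figure D2:**
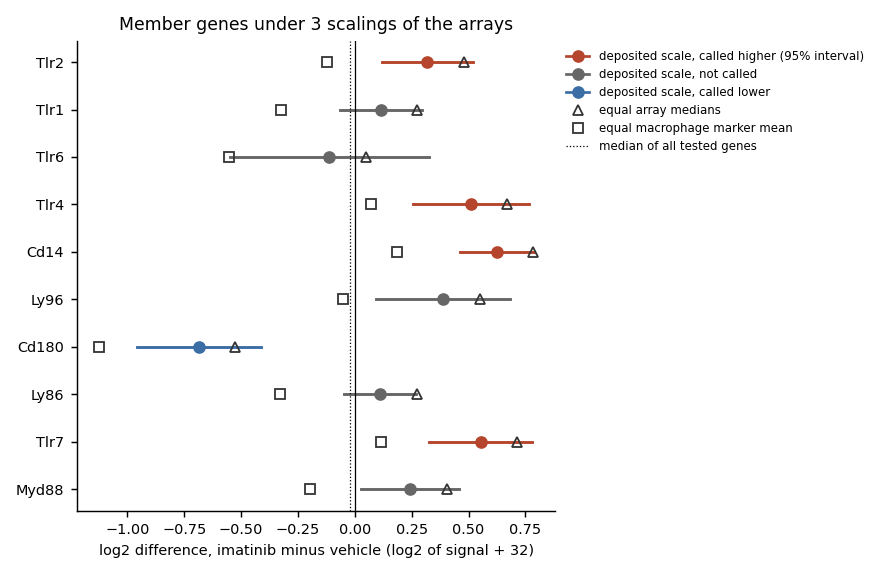
Log2 differences (imatinib minus vehicle) of the 10 member genes: filled circles with 95% intervals are on the deposited scale, triangles with equal array medians, squares with the macrophage marker mean made equal. Every triangle lies 0.16 to the right and every square 0.44 to the left of its circle; Cd14 (0.62) stays right of 0 and Cd180 (-0.69) left of 0 on all 3 scales.

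The remaining Toll-like receptor genes were dim or did not pass. Tlr3, for the receptor of double-stranded RNA, had a signal of 643.5 and 579.8 with imatinib and 813.7 and 679.9 with vehicle, a log2 difference of -0.27 (limma adjusted p = 0.19). Tlr5, for the flagellin receptor, had a difference of 0.12 (limma adjusted p = 0.82) with overlapping arrays. It did not pass with equal medians or against the macrophage markers either. Tlr3 was lower against the macrophage markers (-0.71, limma adjusted p = 0.0015), as were 60.5% of all tested genes. Tlr8 and Tlr9 lay below the signal filter, at 33.6 to 102.9 and 9.22 to 38.3 over the 4 arrays.

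Genes whose products help the receptors were in part higher. Of 5 tested, 2 were higher and none lower (median log2 difference 0.30), where 6.74% and 8.85% of all tested genes were. These 2 were Cd36, a scavenger receptor that aids TLR2 (1.47-fold), and Itgb2, the common beta chain of leukocyte integrins (1.43-fold). Set against the macrophage markers, 0 were higher and 1 lower (median -0.14), with Cd36 at 0.12 and Itgb2 at 0.07. Unc93b1, which escorts the endosomal receptors, had a difference of 0.30 (limma adjusted p = 0.064), and Hsp90b1, the chaperone that folds Toll-like receptors, -0.26 (limma adjusted p = 0.060). The soluble lipopolysaccharide-binding protein gene Lbp was below the filter.

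Most genes of the signalling chain did not pass. Of 15 adaptors, kinases and ubiquitin ligases tested, 2 were higher and none lower, with a median of 0.09. Their median against the macrophage markers was -0.35 and 9 were lower. Over all tested genes that median was -0.46, and 60.5% were lower. The kinase gene Tbk1 (1.32-fold) and Peli1, a ubiquitin ligase gene (1.29-fold), were the ones that rose, and both turn negative against the macrophage markers. Neither passed without imatinib replicate 1 or without vehicle replicate 1, which left 0 of the list higher, and 1 was higher without imatinib replicate 2. Tirap, for the adaptor that brings MYD88 to TLR2 and TLR4, had 269.2 and 284.8 with imatinib and 178.5 and 194.6 with vehicle, a difference of 0.50 that did not pass (limma adjusted p = 0.075).

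Inhibitors of the pathway were higher in 6 of 15 cases and lower in none (median 0.23). Their median against the macrophage markers was -0.21, with 1 higher and 8 lower, where 1.41% and 60.5% of all tested genes were. Tnfaip3, which encodes the ubiquitin-editing enzyme A20, rose 1.95-fold, at low signals of 179.2 and 241.1 with imatinib and 95.6 and 86.7 with vehicle. Atf3, a transcriptional repressor gene that lipopolysaccharide induces, had a signal of 10722.5 and 10300.7 with imatinib, against 5918 and 6281 with vehicle, and rose 1.72-fold. Trafd1, Zfp36, which destabilises cytokine transcripts, the phosphatase gene Dusp1 and Socs3 rose by 1.38-fold, 1.37-fold, 1.37-fold and 1.21-fold. Their log2 differences against the macrophage markers were 0.03, 0.02, 0.02 and -0.16.

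Of the genes that lipopolysaccharide induces early in macrophages, 12 of 20 were higher and none lower on the deposited scale (median 0.34). Against the macrophage markers the median was -0.10, with 6 higher and 5 lower, where 1.41% and 60.5% of all tested genes were. Cxcl1, Cd83, Ptgs2, Ier3, Il1b and Cxcl2 had the largest differences, from 1.33 to 0.71 on the log2 scale, all above the shift of 0.44. Both imatinib arrays lay above both vehicle arrays for 16 of these 20 genes. They lay below for 3, Tnf (-0.10), Sod2 (-0.19) and Clec4e (-0.16). Over all tested genes these shares were 26.1% and 30.1%. Of the later response genes, 4 of 11 were higher and 1 lower (median 0.28, or -0.16 against the macrophage markers, where 0 were higher and 5 lower). The 4 higher became 1 without imatinib replicate 1 or without vehicle replicate 1, and 2 without vehicle replicate 2. Il10, for an anti-inflammatory cytokine, rose 1.70-fold, and Cxcl9, Ccl5 and Irf1 rose by 1.31-fold, 1.27-fold and 1.21-fold, these last turning negative against the macrophage markers. Saa3, an acute-phase gene, fell by 1.71 on the log2 scale, with 351.8 and 415 on the imatinib arrays and 1319 and 1331 on the vehicle arrays. Where no gene of a list was lower in limma after adjustment, the number lower at an unadjusted p under 0.05 was 1 for the receptor helpers, 1 for the inhibitors, 1 for the monocyte markers and 0 for the signalling chain, the early response genes and the macrophage, neutrophil and conventional dendritic cell markers. Several of the response genes are also induced by other stimuli, and macrophage and epithelial markers moved on the same arrays as given above.

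**Figure D3:**
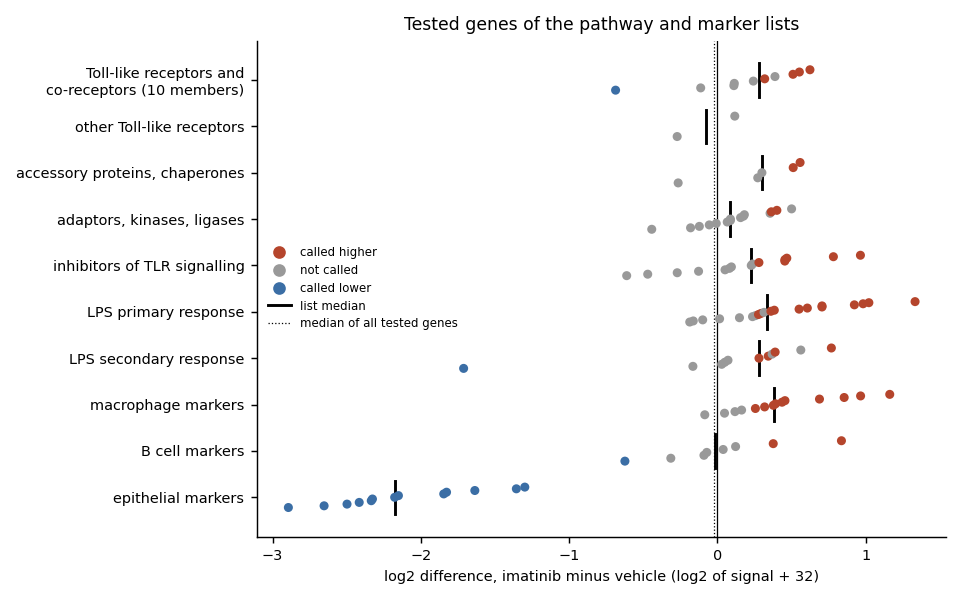
Log2 differences (imatinib minus vehicle, deposited scale) of the tested genes in each pathway list and in 3 marker lists; each point is a gene, red called higher, blue called lower, grey not called, black bars list medians and the dotted line the median of all tested genes. The 10 members spread from -0.69 to 0.62, the macrophage markers centre on 0.38 and the epithelial markers on -2.18.

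Other myeloid cells that carry these receptors were looked for by their markers. Of 6 monocyte markers 4 were higher and none lower (2 higher and 2 lower against the macrophage markers). Their summed signal was 16252 to 16471 with imatinib and 14236 to 14360.5 with vehicle. The other 2, Ccr2 (-0.21) and Plac8 (-0.27), did not pass. Both imatinib arrays lay below both vehicle arrays for these 2, as for 30.1% of all tested genes. Of 8 conventional dendritic cell markers 3 were higher (1 without imatinib replicate 1 or without vehicle replicate 1, and 1 higher and 1 lower against the macrophage markers), with sums of 5074 to 5197 with imatinib and 4200.4 to 4223 with vehicle. Only 4 of 9 neutrophil markers passed the filter, with sums over the list of 1026 to 1097 with imatinib and 654.9 to 882.4 with vehicle. Of these 4, Csf3r, the receptor of the growth factor G-CSF, was higher (log2 difference 0.70, limma adjusted p = 0.013), though 0 of them were called without imatinib replicate 1, without vehicle replicate 1 or against the macrophage markers. S100a8 (0.91, limma adjusted p = 0.055), S100a9 (0.27, and -0.17 against the macrophage markers) and Ngp (-0.14, and 0.02 with equal array medians) did not pass. Of 5 plasmacytoid dendritic cell markers, a cell type rich in TLR7, none was higher and 1, Klk1, was lower (1 higher and 2 lower in limma at an unadjusted p under 0.05; 3 lower against the macrophage markers), with sums of 6746 to 7386 with imatinib and 8020.0 to 8352 with vehicle. Klk1 had a log2 difference of -2.06, near the median of -2.18 of the epithelial markers, while the others of its list ran from -0.21 to 0.36. Which cells the Klk1 signal came from was not tested. The part of these myeloid cells in the members' values was not tested.

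The genes most like the members were sought by the distance between log2 values centred on each gene's mean over the 4 arrays. Ctsz, Smim26, Aif1, Rgs2 and Vamp4 lay closest to the members' median profile, at distances of 0.02 to 0.03, with log2 differences between 0.24 and 0.28. This describes 4 arrays only.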

How the data were processed

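RNA of sorted tumour-associated macrophages was measured on 4 Affymetrix arrays, 2 per group. The deposited values are linear signal intensities that the authors computed with the MAS5 algorithm (Affymetrix Expression Console), as the submitters' processing notes name it; versions and settings are not stated in the labels. The 2% trimmed mean was 500.3 on each array, so the values are relative to a common level, and median signals were 122.3 and 133.7 with imatinib and 152.4 and 141.5 with vehicle. The number of arrays limits the precision.

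Of 22690 probe sets, 64 controls were left out; of the others, 20380 had 1 symbol, 691 several and 1555 none, and 20351 matched the RefSeq table of GRCm38.p6 by Entrez ID with 0 symbols changed. Each gene was represented by its brightest probe set and tested if its mean signal reached the 40th percentile (82.9). Log2(signal + 32) was compared with limma (lmFit, eBayes with trend, two-sided, Benjamini-Hochberg adjustment over all genes tested, threshold 0.05). Alternatives changed the pseudocount, filter, scaling, probe set rule, trend, block and arrays, 16 in all. The members, gene lists, named-gene rule and tests were chosen with earlier results of these data known. The named genes are all members, the other Toll-like receptors, up to 6 called genes per pathway list and up to 3 brightest markers per list. Unc93b1, Hsp90b1, Lbp, Tirap, Tnf, Sod2, Clec4e, Cd79b, Pax5 and S100a8 were chosen after their values were seen. The letters of the NF-kappaB motif were narrowed after a looser form had been searched. The procedure was tested on simulated data. R 4.3.3, limma 3.58.1, Python 3.11.15, pandas 2.3.3, numpy 2.4.6 and matplotlib 3.10.9 were used.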

Additional observations from a re-analysis of the deposited data

How the results depend on the processing

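Cd14 and Cd180 kept their direction and their call under all 16 alternatives, with log2 differences of 0.18 to 0.79 and -1.13 to -0.53. The equal macrophage marker mean could not have turned the sign of Cd180, nor equal array medians that of Cd14. The count of member genes called higher, 4, became 1 with the macrophage marker mean made equal and 2 without the variance trend, and the count called lower, 1, became 4 with the macrophage marker mean made equal. Leaving out each array in turn gave 2 to 4 higher, 1 lower and 3 to 5 member probe sets called, against 5 with all arrays and 2 without the trend. Signs turned against the macrophage markers for Ly86 (-0.33), Ly96 (-0.051), Myd88 (-0.20), Tlr1 (-0.33) and Tlr2 (-0.12), under quantile normalization for Ly86 (-0.014), and for Tlr6 with equal array medians (0.048) and when arrays were left out (-0.40 to 0.17). Without the trend the calls of Tlr2 and of Tlr4 (limma adjusted p = 0.070) were lost. Over all genes, 550 were higher and 722 lower. These counts became 1044 and 506 with equal medians, 115 and 4938 with the macrophage marker mean made equal, 196 and 521 without the trend and 356 and 541 without the filter, and 308 to 467 and 501 to 689 when arrays were left out (308 higher without imatinib replicate 1, 352 without vehicle replicate 1). With the replicate number as a block 421 were higher and 634 lower, and 3 members were higher and 1 lower, since Tlr2 no longer passed (limma adjusted p = 0.057). Same-numbered arrays did not deviate together (correlation of deviations -0.13), and nothing in the labels pairs them. Of 576 list counts, 493 stayed within 1.5 times the count given and 83 did not. The 493 include counts of 0 that stayed 0, as in the T cell, endothelial and mast cell lists. They therefore say little about how stable the other counts were. The cause of these changes was not tested, except that equal array medians and the equal macrophage marker mean each move all genes by 1 constant. Genes below the signal filter were not tested.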
